A study of Rattus norvegicus and Mus musculus with 61 samples.

Results

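The cytosolic ribosomal protein genes encode the proteins of the small (Rps) and large (Rpl) ribosomal subunits. They were followed here in injured and uninjured parieto-occipital cortex of mouse and rat, measured on oligonucleotide arrays. Members were the probe sets whose only annotated gene symbol starts with Rpl or Rps and names a ribosomal protein, with the Rps6k kinases left out, and of several probe sets for a gene the brightest on average stood for it. This gave 35 of 8251 mouse genes, from 49 probe sets, and 44 of 4736 rat genes, from 64 probe sets. They include 4 mouse and 7 rat members that are named as relatives or pseudogenes, such as Rpl39l, Rps27l, Rpl3l and Rps2-ps1. After a filter on low signal, 26 mouse and 42 rat members were tested, and 21 and 38 of these had a mean signal of 1000 or more and are called the high-signal members.

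The mice were male C57BL/6 animals of 20 to 25 g under isoflurane, and each sample pooled 4 mm cortex disks of 3 mice. Injury was a controlled cortical impact, in which a driven tip indents the exposed cortex, at 6 m/s and 1.5 mm depth. Mouse samples were taken 4, 8, 24 or 72 h after injury (3 per time) or sham surgery (2 per time), and 2 samples came from naive mice. The rats were male Sprague-Dawley animals of 400 ± 25 g under sodium pentobarbital, and each sample was a 7 mm disk of 1 rat. Injury was fluid percussion at 2.5 atm, a pressure pulse on the closed fluid space over the cortex. Rat injury samples numbered 5 at 30 min and 3 at each of 4, 8, 24 and 72 h and 21 d. Rat sham samples numbered 4 at 30 min, 4 at 4 h and 2 at each later time, and 3 rats were naive. Ages are not given in the sources used here. Mouse sham samples of a time share the title number 1 and differ in a letter (1b, 1c or 1d), so they may not be separate surgeries, and a p-value here reflects only array-to-array spread. Disks contain every cell type of the cortex and cells that enter it, and in such bulk samples fewer cells of a type and less RNA per cell cannot be told apart.

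Ribosomal proteins are made in matched amounts and assembled on ribosomal RNA in the nucleolus, so their mRNAs are among the most abundant of a cell. Many of these mRNAs begin with a run of pyrimidines just after the cap, through which mTOR signalling and the binding protein LARP1 set how well they are translated. The arrays measure mRNA signal only and say nothing of translation. Some members also have roles outside the ribosome: Rpl5 and Rpl11, with 5S RNA, bind the p53 regulator Mdm2, Rps6 is phosphorylated by the S6 kinases, and Rps27l is a p53 target.

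Runs of pyrimidines lie at or near the annotated starts of several rat members named in the results. The following windows run from 10 bases before to 20 after the RefSeq start (assembly GRCr8), 5′ to 3′ on the gene's strand. Capitals mark a C followed by at least 4 C or T, where one is present.
Rplp0: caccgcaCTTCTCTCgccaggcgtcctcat
Rps6: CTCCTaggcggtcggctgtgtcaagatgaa
Rps16: aaaatcggtcggggtggccccaagCTTTCC
Rps24: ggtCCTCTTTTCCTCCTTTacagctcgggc
Rpl13a: tCCTTTCCTaggcggctgccgaagatggcg
Rpl11: cttgaagcttgtttggtgctggggagcatc
Rps27l: ttcatttgtcattatttgtggtgtccagag
The windows lie at chr12:46718371-46718400 (minus strand) for Rplp0, chr5:106420521-106420550 (minus) for Rps6 and chr1:92770648-92770677 (plus) for Rps16. They lie at chr16:96507-96536 (plus) for Rps24, chr1:104748894-104748923 (minus) for Rpl13a, chr5:153560783-153560812 (minus) for Rpl11 and chr8:76443648-76443677 (plus) for Rps27l. Rplp0, Rps6, Rps16, Rps24 and Rpl13a are shown for their runs of different length and place, and Rpl11 and Rps27l because their annotated windows hold none. Of the 44 rat members, 38 matched a RefSeq entry, and 25 of these (65.8%) had such a run in the window, against 33.6% of the 33469 rat promoters of the same table. The run spans the annotated start in 15 of these 25, among them Rplp0 and Rps24. It lies wholly before the start in 4, among them Rps6 and Rpl13a, and wholly after it in 6, among them Rps16, so in these it is not at the annotated first base. In the 300 bases around the start, read on both strands, CCGGAAG (a core of ETS factor sites) was found in 9 of 38 members (23.7%, against 8.75% of all promoters) and GGGCGG (the GC box) in 24 (63.2%, against 33.1%). AAGATGG was found in 8 (21.1%, against 7.01%) and TATAAA in 5 (13.2%, against 14.2%), and the end of CCGGAAG can be the start of AAGATGG. The latter is also visible in the Rpl13a window, in lower case. All of these are matches of letters in annotated windows and not measured binding sites.

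Many members were among the brightest features of the arrays, with 19 of 35 in mouse and 32 of 44 in rat at or above percentile 90. Others were dim, and 9 mouse and 2 rat members were below the filter. The mouse ones include Rpl32, Rpl35a, Rpl38, Rpl39, Rps14 and Rps20. The members' median percentile of mean signal among genes was 93.9 in mouse and 97.2 in rat. The highest mean signals in mouse were those of Rps24 (17257), Rps28 (13802) and Rps3a1 (13480), and the lowest were Rps27l (34.7), Rpl39l (46.1) and Rps15 (52.3). In rat, Rps29 (22667), Rpl31 (15400) and Rpl27a (14712) were highest, and Rplp1l3 (65.8), Rps2-ps1 (108) and Rpl5 (376) lowest. A signal depends on the probes as well as the mRNA, and levels are not compared between genes. The ubiquitin fusion gene Rps27a and the stalk genes Rplp1 and Rplp2 have no probe set of a single symbol, and Rps6, Rpl5 and Rpl11 were measured only in rat. Processed pseudogenes of ribosomal proteins are common, so a probe set may read several near-identical copies.

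Spread between arrays of a group was, for high-signal members, near that of all tested genes with a mean signal of 1000 or more. The median residual SD (log2) was 0.218 over the 26 tested mouse members and 0.252 over all 6355 mouse genes tested, and 0.414 against 0.566 in rat (42 members, 4090 genes). For the high-signal members it was 0.191 against 0.199 for all mouse genes of that signal, and 0.397 against 0.416 in rat, so most of the gap goes with signal. The steadiest mouse members were Rps18 (0.09), Rps3a1 (0.12) and Rplp0 (0.13). The least steady tested member was Rpl41 (1.37). In rat, Rpl6, Rpl21 and Rpl27 had the smallest residual SDs (0.22, 0.22 and 0.26) and Rpl30 (1.04) and Rps10 (0.99) the largest among tested members. For Rps10 the lowest signals (171, 941, 947 and 2303) were those of the 4 arrays described next, with 3858 to 9064 on the others. The rat residual SDs, which all rat comparisons share, include these 4 arrays.

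On 4 rat arrays the profile differed from the rest. The median correlation with the other rat arrays was 0.731 for replicate 3 and 0.608 for replicate 4 of the 4 h sham group. It was 0.829 for the third 30 min sham array and 0.798 for the fifth 30 min injury array, and at least 0.864 for all others. Rat calls at 4 h and in the difference between 72 and 4 h are therefore given with and without these arrays, a choice made after the data were seen. The deposited values carry a common scale, and differences are in log2 of signal, injury minus time-matched sham, with the standard error. A gene was called at an adjusted p below 0.05 (limma, Benjamini-Hochberg over all genes tested in the comparison).

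The clearest change in mouse was a rise at 24 and 72 h of Rplp0, the P-stalk protein that recruits elongation factors to the large subunit. At 72 h its signal was 14950, 15147 and 14470 in injured cortex and 7837 and 9820 after sham surgery. Every injury array stood above both sham arrays, and the means were 14856 ± 348 (SD, n = 3) and 8829 ± 1402 (SD, n = 2). The difference was 0.76 ± 0.14 (limma adjusted p = 0.000736), and 0.72 after quantile normalization between arrays (adjusted p = 0.000252). At 24 h it was 14117, 14310 and 11522 against 8287 and 8069 (0.70 ± 0.14, adjusted p = 0.00227). All injury arrays were again the higher ones, with means of 13316 ± 1557 (SD, n = 3) and 8178 ± 154 (SD, n = 2). Earlier the difference was small, with 7976, 7794 and 8589 against 7500 and 9117 at 4 h (-0.03 ± 0.14) and 9387, 10685 and 10854 against 8165 and 9451 at 8 h (0.23 ± 0.14, adjusted p = 0.361). The naive arrays (8411 and 9002) lay in the range of the sham arrays. Rplp0 at 72 h kept its call in every alternative run, and at 24 h in all but the fit of the compared groups alone (adjusted p = 0.0962).

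The large-subunit genes Rpl7a and Rpl10a rose with it. Rpl7a signal was 7111, 6806 and 6485 at 72 h in injured cortex and 4396 and 4503 after sham surgery (0.61 ± 0.15, limma adjusted p = 0.00776). At 24 h it was 6546, 6435 and 7509 against 5296 and 3566 (0.65 ± 0.15, adjusted p = 0.00674). The arrays of the groups did not overlap at either time, although the 24 h call rests on sham 1d (0.36 and limma adjusted p = 0.244 without it). With the title letter as a block the adjusted p of Rpl7a was 0.107 at 24 h and 0.128 at 72 h. Rpl10a at 72 h was 6670, 6629 and 6609 against 3678 and 4517 (0.70 ± 0.15, adjusted p = 0.00297), with no overlap. Its second probe set showed no such difference (-0.01, with 4029, 3280 and 4461 against 2711 and 5695), and the mean of both gave 0.34 (adjusted p = 0.176). The call is thus one of the brighter probe set.

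Rps18, a protein of the head of the small subunit, was the only small-subunit member called at 72 h. Its signal was 14696, 15028 and 14710 in injured cortex against 10279 and 11940 after sham surgery (0.42 ± 0.12, limma adjusted p = 0.0237). The injury arrays were all higher, but the call was lost under several alternatives, among them median centring (adjusted p = 0.114) and without sham 1c (0.31, adjusted p = 0.144). At 24 h Rps18 was 14646, 15809 and 12702 against 11438 and 10675 (0.37, adjusted p = 0.052), just over the threshold. In the plot of these genes by array the groups are apart at 72 h.

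**Figure D1:**
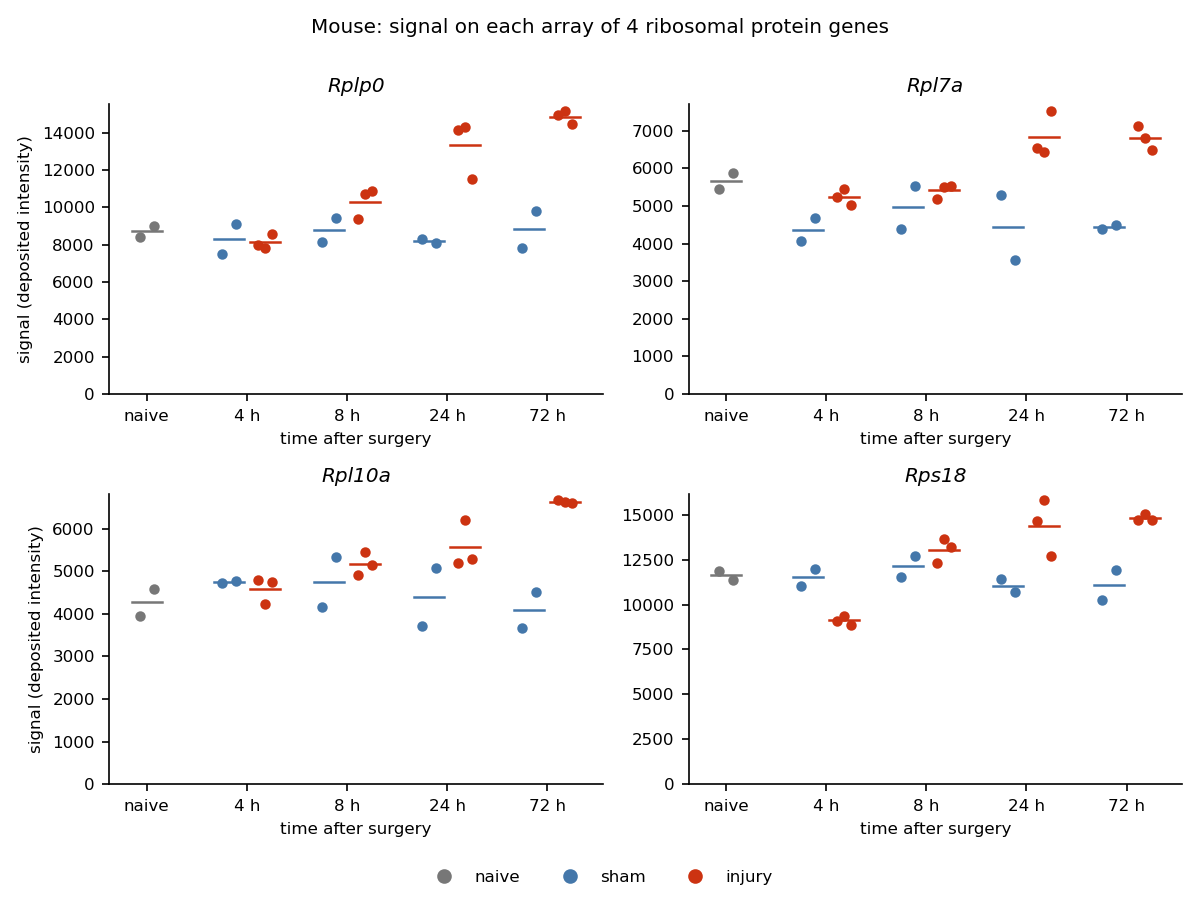
Signal of the mouse members that rose, by array, for naive, sham and injury samples at each time. Points are arrays and lines are group means, and at 72 h every injury array of Rplp0 (14470 to 15147) lay above both sham arrays (7837 and 9820).

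At 72 h, 4 of the 26 tested mouse members were called, all higher (Rplp0, Rpl10a, Rpl7a and Rps18), and 15.5% of all genes tested were called (9.85% as rises), so the count is near the background and is not a result about these genes as a class. At 24 h, 3 of 26 were called against 10.7% of all genes, with Rplp0 and Rpl7a higher and Rps4l lower; the count was 5 without sham 1c and 1 without sham 1d. Rps4l, a relative of Rps4x, was 577, 514 and 902 in injured cortex against 1146 and 920 after sham surgery (-0.67, limma adjusted p = 0.0438). Its injury arrays were all lower. The fall was not seen by its second probe set (0.03) and was lost under several alternatives.

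Most high-signal members were higher in injured cortex at 24 and 72 h. On single arrays, the median signal over the 21 of them was 10711, 10930 and 9331 in injured cortex at 24 h and 8954 and 7530 after sham surgery. At 72 h it was 10880, 10791 and 11324 against 7837 and 9878, and the naive arrays had 8951 and 9662. Injury arrays were above sham arrays at both times, by little against the higher sham array. Of the 21 high-signal members, 18 (85.7%) were higher at 24 h, with a median difference of 0.37. All 2559 tested genes with a mean signal of 1000 or more had 43.5% higher and a median of -0.05. At 72 h, 18 of 21 were again higher, with a median of 0.23, against 43.5% and -0.06. Large-subunit and stalk members were higher in 10 of 10 cases at 72 h (median 0.27) and small-subunit members in 8 of 11 (median 0.20). Members whose every injury array lay above every sham array numbered 11 of 26 at 24 h, where 17% of all genes did, and 7 of 26 at 72 h, where 20.5% did.

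Because these probe sets are bright, their medians can move with the scale of an array. With quantile normalization the median was 0.20 at 24 h and 0.26 at 72 h, so the direction held. At 24 h it was 0.19 without sham 1d. At 72 h it was -0.02 without sham 1c and 0.41 without sham 1d, so its size and sign rest on single sham arrays. The plot of member differences by time shows the medians and single genes.

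**Figure D2:**
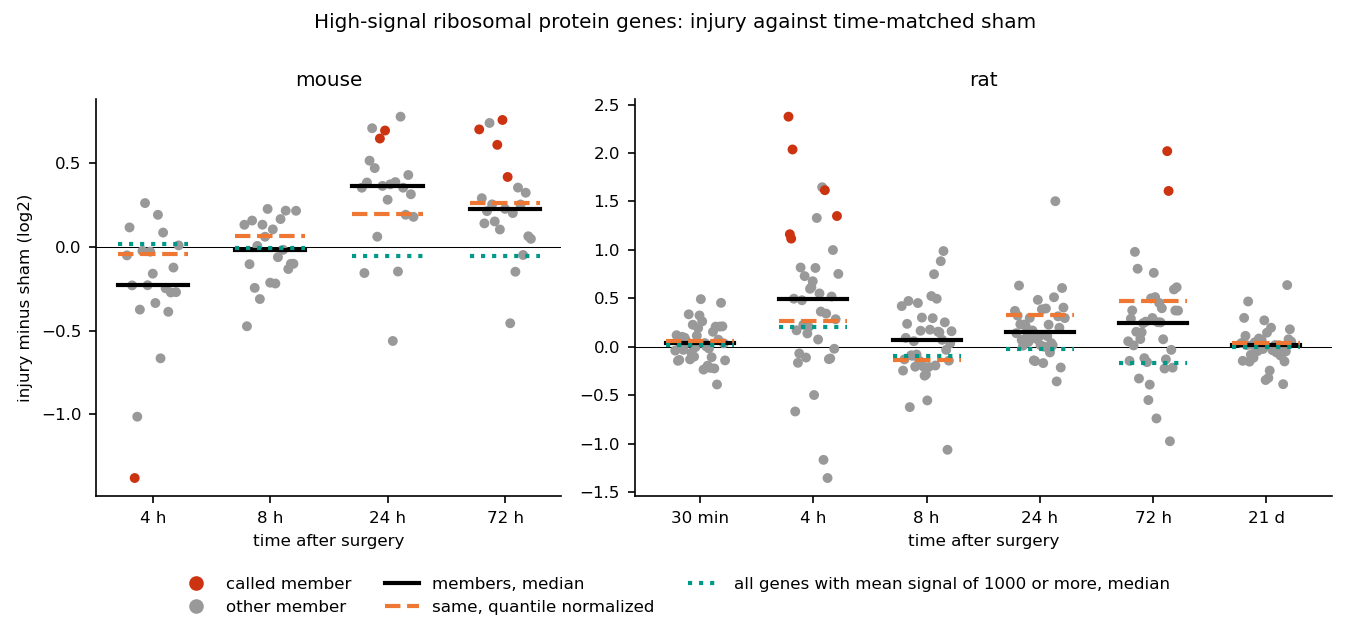
Injury minus sham difference (log2) of each high-signal member at each time in mouse and rat, with solid lines for the members' median, dashed lines for the median after quantile normalization and dotted lines for all genes of that signal. The mouse medians were -0.23 at 4 h, 0.37 at 24 h and 0.23 at 72 h.

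Markers of other cells moved at the same times. At 72 h, 13 of 14 tested microglia and macrophage markers rose, and at 24 h 7 of 14. The summed signal of all 17 on the array, tested or not, was 30493 to 40356 in injured and 8859 to 10427 in sham arrays at 72 h, and 16882 to 18337 against 8692 to 8863 at 24 h. Oligodendrocyte markers rose in 5 of 7 cases at 72 h and 3 of 7 at 24 h (sums at 24 h of 25771 to 32343 against 18275 to 19887), and endothelial and pericyte markers in 5 of 11 at 72 h (10363 to 11783 against 5273 to 6605). Of 8 astrocyte markers 2 rose at 72 h (31278 to 34695 against 23517 to 26110), and of 12 neuron markers 1 fell, with sums that overlapped. Cell-cycle genes rose in 9 of 12 cases at 72 h (sums over 14 of 8409 to 10214 against 4104 to 5074). Their part in the rise of the ribosomal protein genes was not tested.

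At 4 h in mouse, the members leaned the other way. All injury samples of this time carry the title letter a and the sham samples b or c, so injury and letter cannot be told apart. Of the 21 high-signal members 16 were lower, with a median of -0.23 against 0.02 for all 2559 genes of that signal. Every injury array lay below both sham arrays in 12 of 26 members, where 16.4% of all genes did. The median was -0.04 after quantile normalization and -0.12 without sham 1c. Of 26 members 1 was called (0.865% of all genes were called). This was Rpl37a, a zinc-finger protein of the large subunit, with 2739, 2849 and 2618 in injured cortex against 5430 and 9334 after sham surgery and 6818 and 6252 in naive mice. The injury arrays were the lowest of all (-1.38 ± 0.27, limma adjusted p = 0.0119), and the call was lost without sham 1c (-0.99, adjusted p = 0.425). The 3′ to 5′ signal ratio of the actin control probe sets on these arrays was 0.0552 to 0.588 in injured and 0.722 to 0.973 in sham samples, and the pituitary hormone gene Prl had 8270 and 8861 in the sham arrays against at most 459 elsewhere. Whether either bears on the members was not tested.

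At 8 h 1 of 26 members was called (8.18% of all genes were). Rps4l was 562, 779 and 687 against 997 and 1161 (-0.68, limma adjusted p = 0.048), all injury arrays lower. Its second probe set was higher (0.46), and the call was lost under 6 of the alternatives and without any of 4 single arrays (injury replicates 1 and 3, sham 1b and 1c). The high-signal median at 8 h was -0.02.

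Rpl41 varied between arrays of one group far more than the other tested members, followed by Rps28 and Rps19 (residual SDs of 0.49 and 0.48). For Rps28 this holds for its brightest probe set. Another one, with a mean signal of 8917, was steadier (4 h difference -0.16 ± 0.13, against -0.25 ± 0.39), so the Rps28 values below are those of 1 probe set. Rps24 (0.29) is given with them for its low signal at 4 h. Rpl41, which encodes a very short basic peptide, had a signal of 22168 and 19345 in naive mice and of 740 and 2081 in sham samples at 4 h. Among sham samples at 24 h it was 7821 and 726, and at 72 h 11350 and 715. Sham 1d was the low array at both times. Across sham times, Rpl41 was lower than in naive by 2.99 on the log2 scale, yet with a limma adjusted p = 0.233. Rps28 was 24558 and 22008 in naive mice, 5132 and 10058 after sham surgery at 4 h, 16398 and 5406 at 24 h, and 18466 and 9878 at 72 h (sham minus naive -1.12, adjusted p = 0.227). Rps24 was 24200 and 21185 in naive mice and 9718, 9272 and 6616 in injured cortex at 4 h, with 11805 and 15091 in the matching sham arrays. In Rpl41, Rps28 and Rps24 the arrays of 4 h were among the lowest. No member was called in sham against naive (0.11% of all genes were), and 6 had an unadjusted limma p below 0.05, all lower in sham. The share of all genes with such an unadjusted p was not counted, so the 6 have no background beside them. The absence of a called member did not hold in every fit that left out a single array.

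**Figure D3:**
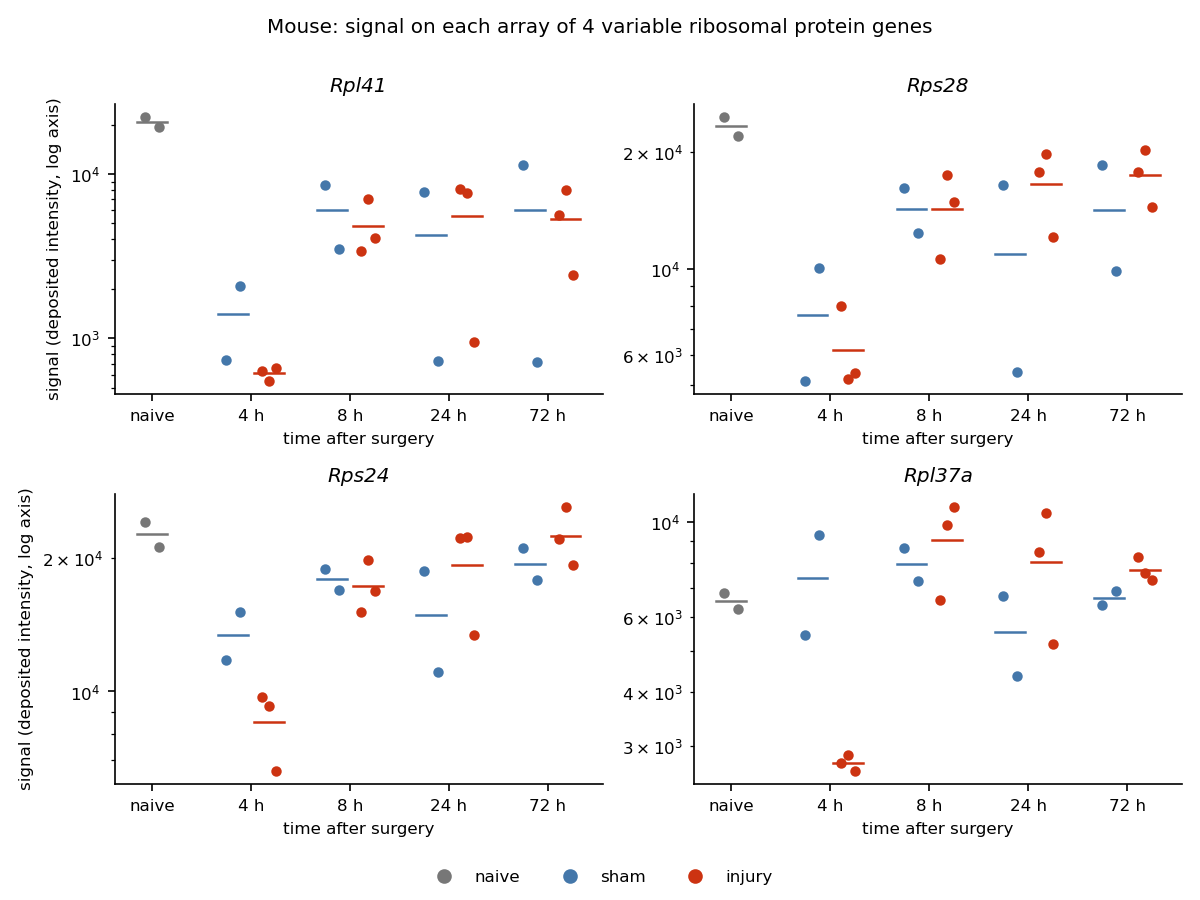
Signal (log axis) of Rpl41, Rps28, Rps24 and Rpl37a by mouse array, with lines for group means. Rpl41 ranged from 550 to 22168, and the Rpl37a arrays of injured cortex at 4 h (2618 to 2849) lay below all others.

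The injury effect was tested for a difference between 72 and 4 h. In mouse, injury and title letter cannot be told apart at 4 h, so this holds for the difference too. The mouse effect was larger at 72 h for Rplp0 (by 0.79, limma adjusted p = 0.0203), Rpl10a (0.75, adjusted p = 0.0436), Rpl37a (1.60, adjusted p = 0.0146) and Rps18 (0.75, adjusted p = 0.0118). These are 4 of 26 members, with 5.22% of all genes called. All 4 had an adjusted p above 0.05 without sham 4 h 1c (Rplp0 0.146, Rpl10a 0.137, Rpl37a 0.135, Rps18 0.0747), and 2 of the members were called without injury 4 h replicate 2 or sham 72 h 1c. As the mean over the 4 times, Rplp0 rose by 0.41 (adjusted p = 0.000167), Rpl7a by 0.41 (0.00032) and Rpl10a by 0.29 (0.00851), and Rps4l fell by 0.34 (0.0214). These are 4 of 26 against 23.2% of all genes.

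In rat, the called members at 4 h rest on 2 sham arrays. Of 42 members 6 were called, all higher, against 4.99% of all genes (2.93% as rises). They were the large-subunit genes Rpl11, Rpl13a, Rpl14 and Rpl18 and the small-subunit genes Rps16 and Rps9. Rpl11 signal was 9530, 9164 and 8090 in injured cortex and 8922, 6903, 736 and 192 after sham surgery, with naive values of 7948, 7294 and 7838. The first pair of sham arrays lay with the naive arrays, and the low pair are those that stood apart. The difference of 2.37 ± 0.67 (limma adjusted p = 0.0413) became 0.18 without the 4 arrays (adjusted p = 0.842). Rps16 was 16621, 14327 and 15126 against 11395, 9842, 3123 and 1789 (1.62, adjusted p = 0.0145), and 0.53 without the 4 arrays (adjusted p = 0.312). Rpl18 was 3301, 3423 and 3830 against 2815, 2179, 317 and 277 (2.04, adjusted p = 0.0389), and 0.50 without the 4 arrays (adjusted p = 0.623). In Rpl11 the other sham arrays overlapped the injury arrays. In Rps16 and Rpl18 they lay below every injury array, but by less than the low pair. Rpl13a was 7824, 7611 and 6375 against 4470, 4554, 2755 and 1959 (1.16, adjusted p = 0.0253), and 0.68 without the 4 arrays (adjusted p = 0.295). In Rpl13a, and also in Rps16, Rpl18 and Rpl14, all injury arrays were higher than every sham array. Rpl14 (1.12, adjusted p = 0.0433) and Rps9 (1.35, adjusted p = 0.0433) gave 0.27 and 0.16 without them. Without the 4 arrays none of the 42 members was called at 4 h. Leaving out 1 array gave 0 calls without sham replicate 3 or 4 or injury replicate 1 or 2, 2 without injury replicate 3, and 18 and 19 without sham replicates 1 and 2. The high-signal median at 4 h was 0.49, with 28 of 38 higher (73.7%), and all 1261 tested genes of that signal also leaned up (61.9% higher, median 0.20). The members' median was 0.26 with quantile normalization and 0.13 without the 4 arrays.

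Probe sets of one gene differed in how they read those arrays. The second probe set of Rpl11 also fell on the low pair, but by less, with 6259, 6786, 3493 and 1540 in the 4 sham samples (difference 0.63). For Rps6, the brighter probe set was 7012, 6985, 10857 and 8164 in sham against 10878, 10156 and 8735 in injured cortex (0.28, limma adjusted p = 0.464; 0.50 and 0.557 without the 4 arrays), and the second was 2995, 3003, 1145 and 91 against 4658, 4601 and 3616 (2.12). Rps15 went the other way, with 41965 and 34102 on the low pair of sham arrays against 5242 and 5052 on the others. The Gapdh 3′ to 5′ ratio was 0.242 on sham replicate 4 and 2.63 on replicate 3, and 0.823 and 1.13 on replicates 1 and 2. What these ratios have to do with the member signals was not tested.

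**Figure D4:**
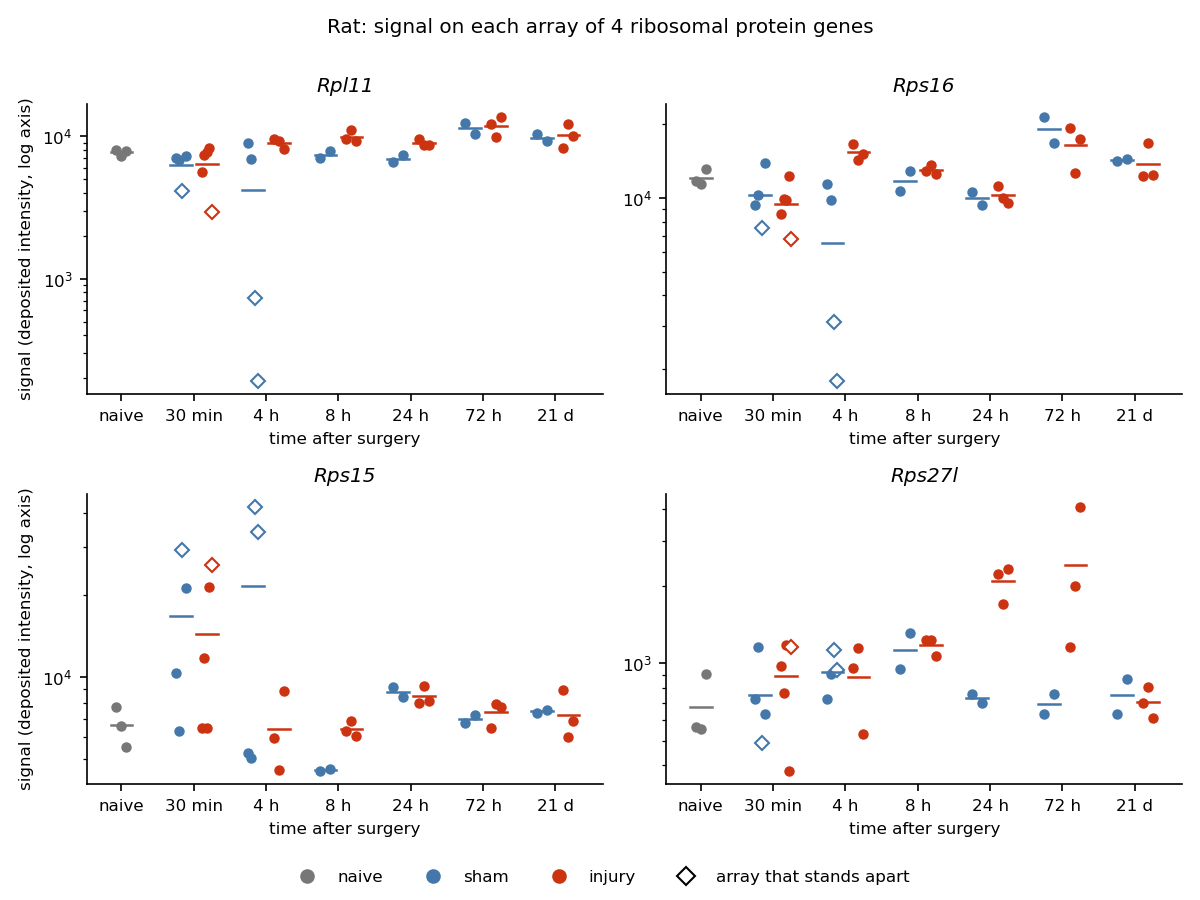
Signal (log axis) of Rpl11, Rps16, Rps15 and Rps27l by rat array, with lines for group means and open diamonds for the 4 arrays that stand apart. At 4 h these diamonds are the lowest sham points of Rpl11 (736 and 192) and Rps16 (3123 and 1789) and the highest of Rps15 (41965 and 34102).

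At 72 h in rat, 3 of 42 members were called, all higher, where 2.76% of all genes were (2.1% as rises). Rps24 was 439, 1536 and 3873 in injured cortex against 335 and 344 after sham surgery (2.02 ± 0.54, limma adjusted p = 0.0366), and 506 to 614 in naive rats. The lowest injury array was above both sham arrays but below all 3 naive arrays. Rpl30 was 408, 931 and 541 against 143 and 28.4 (3.12 ± 0.88, adjusted p = 0.0472), at low signal and with 1 sham array under the floor. Rps27l was 1156, 2002 and 4055 against 632 and 757 (1.61 ± 0.43, adjusted p = 0.0368), with no overlap. The median signal over the whole array was 261, 390 and 325 in these injury samples and 256 and 278 in the sham samples, and its part was not tested.

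Rps27l was higher on every injury array at both 24 and 72 h. At 24 h it was 2226, 1697 and 2336 in injured cortex and 762 and 699 after sham surgery (1.50 ± 0.43), with a limma adjusted p = 0.191, so it was not called there. At the other times the difference was between -0.13 and 0.21. All 3 calls at 72 h were lost when some single array was left out (Rps24 1.27 and adjusted p = 0.315 without injury replicate 3, Rps27l 1.48 and 0.336 without sham replicate 1, Rpl30 2.05 and 0.535 without sham replicate 2). The count of called members was 0 without any of these or injury replicate 2, and 5 without injury replicate 1, by limma. Rps27l had adjusted p = 0.06 with quantile normalization. Microglia and macrophage markers at 72 h had a summed signal of 20001 to 35453 in injured and 9716 to 10401 in sham arrays, and cell-cycle genes 6648 to 12152 against 3225 to 3338. Neuron markers had 10850 to 23620 against 36594 to 37016, and oligodendrocyte markers 28252 to 39125 against 48344 to 49890. Their part in these values was not tested.

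At 24 h in rat, most members were slightly higher. Of 38 high-signal members 31 (81.6%) were, against 46.5% of genes of that signal, with a median of 0.15. Every injury array lay above every sham array in 17 of 42 members, where 16.4% of all genes did. No member was called (0.269% of all genes were), and 1 had an unadjusted limma p below 0.05, a share not counted over all genes. At 72 h the median was 0.25 (26 of 38 higher, against 38.6%) and 0.47 with quantile normalization, but 0.13 without sham replicate 2. Every injury array lay above both sham arrays in 14 of 42 members, where 19% of all genes did. As the mean over times, 32 of 38 were higher with a median of 0.17 (0.07 without the 4 arrays), and none was called (2.3% of all genes).

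The earliest and latest rat times gave no call. None was called at 30 min (0.0244% of all genes) or 21 d (0%), none had an unadjusted p below 0.05, and the medians were 0.04 and 0.02. At 8 h none was called (0.709% of all genes), and 5 had an unadjusted limma p below 0.05, a share not counted over all genes. Every injury array lay above both sham arrays in 10 of 42 members, where 19.5% of all genes did. Rplp0 at 8 h was 14165, 15454 and 13676 against 9169 and 8023 (0.75 ± 0.30, limma adjusted p = 0.431). These arrays did not overlap. Rpsa, the laminin-receptor protein of the small subunit, had no called difference in either species (mouse 72 h 0.05, rat 72 h 0.37). In sham against naive, no rat member was called (0.0244% of all genes), and none had an unadjusted p below 0.05.

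The rat effect at 72 h exceeded that at 4 h for Rps24 (3.37, limma adjusted p = 0.00837), Rpl17 (3.39, adjusted p = 0.0272), Rpl30 (4.08, adjusted p = 0.037) and Rpl5 (2.95, adjusted p = 0.0437), 4 of 42 with 4.72% of all genes called. Rpl5 was 105, 529 and 992 at 72 h against 158 and 95 after sham surgery, and 291, 197 and 164 at 4 h against 548, 324, 614 and 700. All 4 had an adjusted p above 0.05 in some fit without a single array, and the count ran from 0 (without sham 72 h replicate 1) to 11 (without sham 4 h replicate 1). Without the 4 arrays that stand apart, 1 member was called, Rps24 (3.42, adjusted p = 0.0181), with 3.04 for Rpl17 (0.0742), 3.53 for Rpl30 (0.107) and 2.63 for Rpl5 (0.118).

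Of the 16 symbols that were members in both species, 12 passed the filter in both. At 72 h, 8 were higher in injured cortex in both species, 4 in mouse only and none in rat only. At 24 h these counts were 7, 2 and 2, with 1 lower in both. At 4 h they were 3, 2 and 6, with 1 lower in both, in a rat comparison that holds the sham arrays that stood apart. Directions without those arrays were not counted, so the 4 h counts say little about the species. At 8 h they were 6, 1 and 3, with 2 lower in both. None was called in both species at any shared time. Rplp0 at 72 h had 0.76 in mouse and 0.25 in rat (limma adjusted p = 0.778), and Rpl7a had 0.61 and 0.45 (adjusted p = 0.666). The injury models, disks and pooling differ between the species, and the difference between species was not tested.

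**Figure D5:**
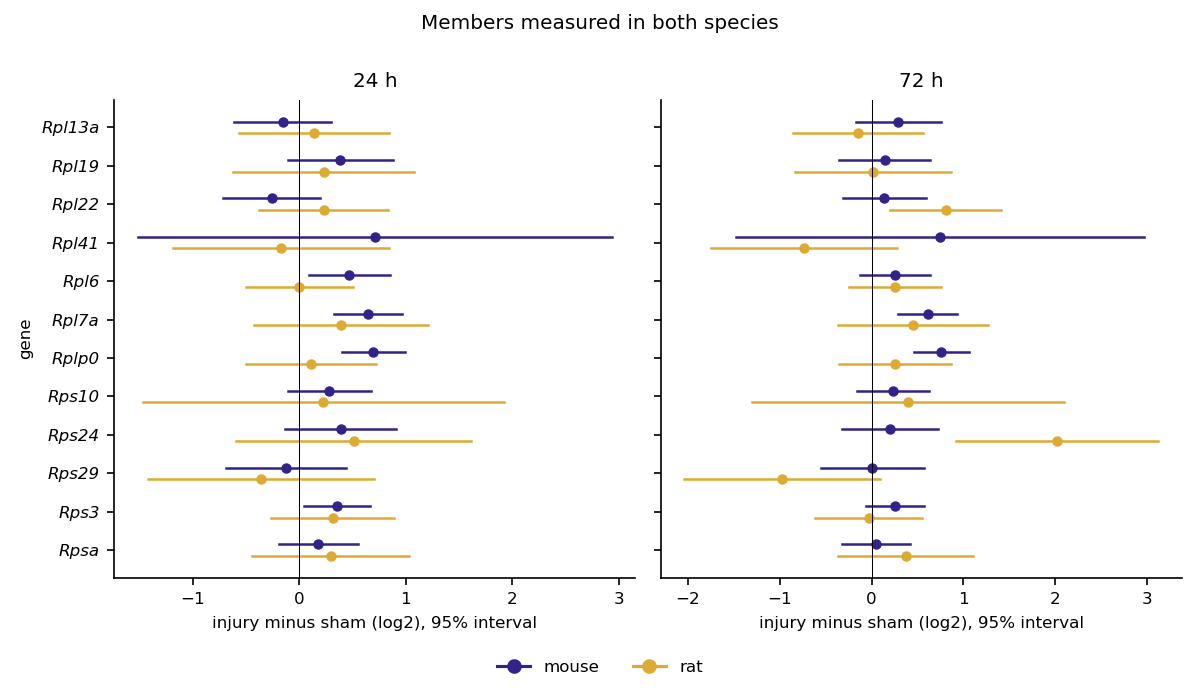
Injury minus sham difference (log2) at 24 and 72 h of the 12 members that passed in both species, for mouse and rat, with 95% intervals. In mouse the intervals of Rplp0 and Rpl7a lie above 0 at both times and those of Rpl6 and Rps3 at 24 h, and in rat those of Rps24 and Rpl22 at 72 h.

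Other genes of translation were called at shares from none to near the background. Of 57 mitochondrial ribosomal protein genes in mouse, none was called at 4, 24 or 72 h, and Mrps34 rose at 8 h (0.70, limma adjusted p = 0.0157). Of 32 initiation factor genes, 4 rose at 24 h, where 10.7% of all genes were called: Eif6, which keeps the subunits apart (0.84, adjusted p = 0.00187), the cap-binding Eif4e2 (1.02, 0.0112) and the Eif3 subunits Eif3d (0.63, 0.0171) and Eif3l (0.47, 0.0218). Of 45 ribosome assembly and nucleolar genes, 35 (77.8%) were higher at 24 h (median 0.20), against 45.4% of all genes tested (median -0.04). Of the 45, 3 rose (Eif6, Rrs1 and Tsr1) and Taf1b fell, again near the 10.7% called among all genes. None of the 5 elongation factor genes was called at any mouse time.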

How the data were processed

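What was deposited is a linear intensity for each probe set on each array, and the software behind it is not given in the sources used here. The authors' intensities share a scale: with 2% trimmed from both ends, array means were 800.3 to 800.5 (mouse) and 800.6 to 801.2 (rat). For this work a floor at the 10th percentile over all arrays (24.1 mouse, 32.1 rat) was set before log2, and genes above the 40th percentile (193 and 202) in at least 3 arrays were tested. limma 3.58.1 (R 4.3.3) fitted all groups of a species together, with a trended prior and 13 (mouse) or 26 (rat) residual degrees of freedom. Figures used matplotlib 3.10.9 in Python 3.11.15. The fit was tested on simulated data.

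Members and gene lists were chosen with earlier results of these data known. Named were called members, the stalk genes, Rpsa, Rps6, Rpl5 and Rpl11, the 3 brightest and dimmest, the 3 most and least variable, members whose probe sets disagree, and up to 4 called genes per list. Alternatives were quantile normalization, median centring, no filter, another floor, the mean of probe sets, the compared groups only, all uninjured arrays as 1 control, averaged mouse sham arrays, replicate or title letter as a block, and leaving out each array. Chosen after seeing the data were a fit without 4 rat arrays, the Gapdh 3′ to 5′ ratio as a covariate, the high-signal subset and a fit per probe set. Probe sets of several symbols were not members.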

Additional observations from a re-analysis of the deposited data

Results flagged for a closer look

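In mouse, the injury effect at 72 h exceeded that at 4 h, by a test of the difference, for Rpl10a (0.75), Rpl37a (1.60), Rplp0 (0.79) and Rps18 (0.75). In rat it did for Rpl17 (3.39), Rpl30 (4.08), Rpl5 (2.95) and Rps24 (3.37). As given above, each of these calls was lost in some fit without a single array. Of the rat genes, only Rps24 kept its call without the arrays that stand apart.

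In 6 rat values 1 array was flagged against the rest of its group by Dixon's criterion, which sets the gap against the range. In each of 3 groups 15 values were tested, and chance gives about 1 in 20. Rpsa was 2370 on injury 30 min replicate 5, against 5179 to 6458 on the others. On sham 30 min replicate 3, Rpl11 was 4143 (others 6824 to 7298) and Rpsa 4150 (others 5780 to 5975). Rpl17 was 212 on sham 30 min replicate 2 (others 871 to 1068), and Rps24 was 1805 on sham 4 h replicate 1 (others 1596 to 1603). The Rps24 gap is small beside its residual SD of 0.62 (log2). It was flagged because the others lay close together, and they include both arrays of that group that stood apart. The median of the high-signal members was 2588 on sham 4 h replicate 4, against 6054 to 7071 on the others.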

How the results depend on the processing

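No called value changed sign under the alternatives run on genes. In the fit per probe set, the second probe set of a called gene had the opposite sign for Rpl10a (mouse 72 h, mean over times and 72 h minus 4 h) and Rps4l (mouse 8 h, 24 h and mean over times), none with an adjusted p below 0.05. For the counts of called members, mouse 4 h (1) gave 5 with all uninjured arrays as 1 control and 0 with averaged sham arrays. Mouse 8 h (1) gave 0 without the filter, with the mean of probe sets, the compared groups only, averaged sham arrays, the title letter as a block or the Gapdh ratio as a covariate. Mouse 24 h (3) gave 0 with the compared groups only, 7 with all uninjured arrays and 1 with the title letter block, and mouse 72 h (4) gave 2 with that block. The mouse mean over times (4) gave 2 with the mean of probe sets, and mouse 72 h minus 4 h (4) gave 1 with median centring, 11 with all uninjured arrays and 0 with averaged sham arrays. Rat 4 h (6) gave 2 without the filter, 0 with the compared groups only, 0 with all uninjured arrays and 0 without the 4 arrays. Rat 8 h (0) gave 1 with the compared groups only, and rat 24 h (0) gave 1 with quantile normalization, the compared groups only or all uninjured arrays. Rat 72 h (3) gave 0 with median centring or the compared groups only, 5 without the 4 arrays and 1 with the Gapdh covariate. The rat mean (0) gave 1 with quantile normalization or all uninjured arrays, and rat 72 h minus 4 h (4) gave 2 with median centring, 2 without the filter, 1 with all uninjured arrays and 1 without the 4 arrays. Causes of these moves were not tested.

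Medians of high-signal members under quantile normalization were -0.043 (mouse 4 h), 0.20 (mouse 24 h), 0.26 (rat 4 h), 0.47 (rat 72 h) and 0.15 (rat 72 h minus 4 h). With all uninjured arrays as control they were 0.22 (mouse 24 h), 0.53 (mouse 72 h minus 4 h), 0.14 (rat 4 h), 0.59 (rat 72 h) and 0.39 (rat 72 h minus 4 h). The rat 72 h minus 4 h median (-0.35) thus turned positive under both, and was -0.71 with median centring and 0.00710 without the 4 arrays, and the rat 4 h median was 0.13 without them.

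Leaving out 1 array gave counts of 0 to 1 (mouse 4 h), 0 to 1 (mouse 8 h), 1 to 5 (mouse 24 h), 0 to 6 (mouse 72 h minus 4 h), 0 to 1 (mouse sham minus naive), 0 to 19 (rat 4 h), 0 to 5 (rat 72 h), 0 to 11 (rat 72 h minus 4 h) and 0 to 1 (rat mean). The medians ran from 0.19 to 0.46 (mouse 24 h), -0.017 to 0.41 (mouse 72 h), 0.25 to 0.63 (mouse 72 h minus 4 h), 0.21 to 0.65 (rat 4 h), 0.10 to 0.25 (rat 24 h), 0.13 to 0.32 (rat 72 h) and -0.54 to -0.082 (rat 72 h minus 4 h).

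In rat, the mean r was 0.04 for arrays with the same replicate number and -0.01 for different ones (15 pairs). At 8, 24 and 72 h and 21 d, both r of an injury array are equal and opposite, so they say little about pairing. The 30 min and 4 h groups hold the arrays that stand apart, so whether arrays pair stays unsettled. The replicate block gave 3 calls at 4 h in place of 6. No paired analysis was possible in mouse because all sham titles carry the number 1. The letter block could not be fitted at 4 h, or in comparisons with the 4 h injury or naive groups, where the letter goes with the group. The number of arrays limits precision.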

Other observations

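Probe sets that carry a ribosomal protein symbol together with others lie outside the rule (39 in mouse, 40 in rat). In mouse, 35 of these passed the filter. At 24 h 29 of 35 were higher in injured cortex (median 0.18, none called by limma). At 72 h 20 were higher (median 0.07) and 2 rose. In rat at 4 h, 36 of 39 were higher (median 1.16) and 13 rose, in the comparison that holds the sham arrays that stood apart.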
